A study of Mus musculus with 21 samples.

Results

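The genes described here are the 7 that encode the subunits of the NMDA receptor, *Grin1*, *Grin2a*, *Grin2b*, *Grin2c*, *Grin2d*, *Grin3a* and *Grin3b*, taken by symbol from RNA-Seq tables of 35266 genes, in which each symbol occurred once. Libraries were made from AGRP and POMC neurons collected by manual sorting of fluorescent cells from the arcuate nucleus, with 1 mouse for each of 21 libraries, to ask how these neurons respond transcriptionally to food deprivation. All animals were male, 46 to 56 days old and on a C57BL/6J background, and they were either given food ad libitum (fed) or left with water alone for 24 hr (food deprived, FD). AGRP neurons came from NPY-hrGFP mice (5 fed, 6 FD) and were therefore selected by a reporter driven by *Npy* rather than *Agrp*, while POMC neurons came from Pomc-GFP mice (5 fed, 5 FD). Each cell type thus came from its own reporter line in both feeding states. A library pooled 44 to 214 neurons, so that a lower transcript level in a pool may reflect fewer cells with the transcript or less transcript in each cell, which cannot be told apart.

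The NMDA receptor is a glutamate-gated cation channel made of several subunits, permeable to calcium and blocked by extracellular magnesium near the resting potential. GluN1, encoded by *Grin1*, is required in every receptor and binds the coagonist glycine or D-serine. The GluN2 subunits (*Grin2a* to *Grin2d*) bind glutamate and set channel kinetics, magnesium sensitivity and much of the intracellular signalling, and the GluN3 subunits (*Grin3a*, *Grin3b*) bind glycine and lower calcium permeability. In AGRP neurons, NMDA receptors are known for their part in the excitatory synapses and dendritic spines that increase with fasting.

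*Grin2b* was the only member whose level passed the test in any comparison of the main analysis. Because reads from such related genes could in principle be exchanged, the GluN2 genes were first compared in sequence, with transcripts of GENCODE M21. Across the aligned coding sequences, identity to *Grin2b* was 64.4% for *Grin2a*, 57.0% for *Grin2c* and 55.6% for *Grin2d*. The longest run of identical bases shared by any pair of the 7 genes was 34 bases, between *Grin2b* and *Grin2c*, against a read length of 100 bases.

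In mm10, the *Grin2b* locus (chr6:135713232-136173511, minus strand) spans 460 kb and *Grin2a* (chr16:9577710-9994921, minus strand) spans 417 kb, whereas *Grin1* (chr2:25291181-25319187, minus strand) spans 28.007 kb. The remaining members are *Grin2c* at chr11:115249169-115267243, *Grin2d* at chr7:45831883-45867129 and *Grin3a* at chr4:49661611-49845549, all on the minus strand, and *Grin3b* at chr10:79970715-79977190 on the plus strand. Counting ignored strand, so reads of overlapping genes are uncertain. Exons of *Grin1* overlap those of its antisense gene *Grin1os*, which was listed at 3.49 to 23.3 TPM (transcript abundance per length, scaled to a common total) in the 21 libraries, and exons of *Grin2b* overlap those of 3 predicted genes. Exons of *Grin2c* and *Grin2d* each overlap those of 1 predicted gene, and exons of *Grin3b* overlap those of *Tmem259*.

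The libraries held 9822298 to 37663979 gene counts (median 19189780), and 3 counts, taken as the detection floor, corresponded to 0.0911 to 0.294 normalized CPM (counts relative to the library total, scaled by TMM). This floor covers counting error only, because amplified reads carried no molecular identifiers. *Agrp* and *Npy* together reached 12064 to 68921 TPM in AGRP libraries and 5.45 to 226 TPM in POMC libraries, and *Pomc* and *Cartpt* together reached 8809 to 37160 TPM in POMC libraries and 114 to 227 TPM in AGRP libraries. The summed level of 19 markers of astrocytes, oligodendrocytes, microglia, endothelial cells and tanycytes was 10.9 to 35.5 TPM in fed AGRP, 11.7 to 25.5 TPM in FD AGRP, 5.95 to 16.3 TPM in fed POMC and 10.2 to 29.7 TPM in FD POMC libraries. Of the 12 that could be tested, 1 (the astrocyte gene *Aldh1l1*, log2 fold change 5.91, q = 0.0284) passed the test between FD and fed AGRP neurons, beside 10.3% of all genes. In the other comparisons 0 passed. The other astrocyte markers had negative log2 values between FD and fed AGRP neurons and were not called. These were −0.98 for *Gja1* (q = 0.806), −0.38 for *Aqp4* (q = 0.928) and −0.50 for *Gfap* (q = 0.897). The 4 microglial markers together reached 0.045 to 9.22 TPM in fed AGRP and 0 to 3.15 TPM in FD AGRP libraries. In POMC libraries they reached 0.062 to 6.20 TPM fed and 0 to 3.59 TPM FD, and 1 of them, *C1qa*, was at 0 in every library. The summed level of *Kiss1*, *Ghrh* and *Th*, markers of other arcuate neurons, was 2.71 to 10.4 TPM in fed AGRP and 1.47 to 29.8 TPM in FD AGRP libraries. In POMC libraries it was 0.661 to 5.34 TPM fed and 0 to 2.15 TPM FD. The part of these cells in the results was not tested.

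**Figure D1:**
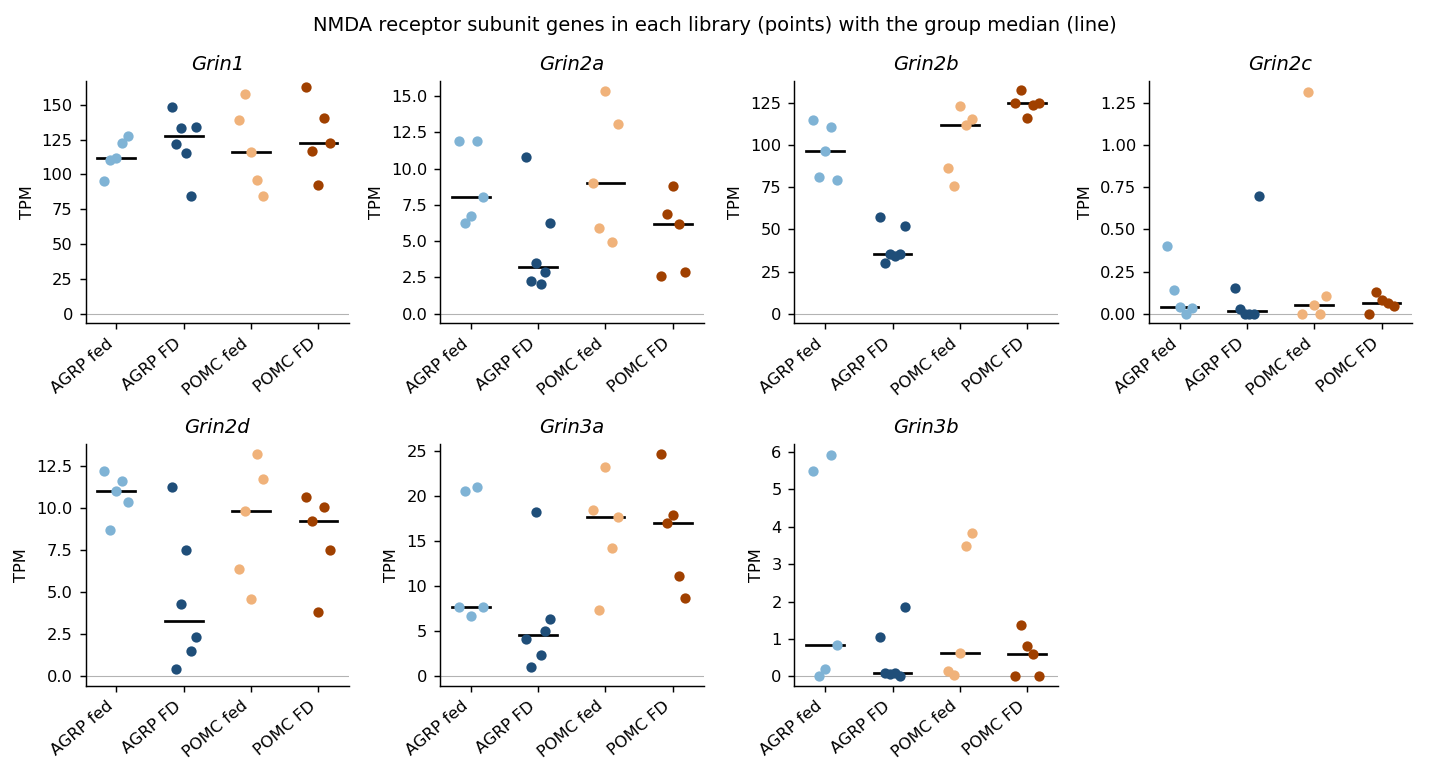
Each panel plots the TPM of 1 NMDA receptor subunit gene in the 21 libraries (points), by cell type and feeding state, with the group median as a line. *Grin2b* lay between 30.1 and 57.5 TPM in the 6 FD AGRP libraries and between 76.1 and 133 TPM in all others, while *Grin1* ranged over 84.5 to 163 TPM with overlapping groups.

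Levels of the subunit transcripts, compared per transcript length as TPM, fell into 3 tiers. *Grin1* and *Grin2b* were the most abundant, with medians over the 21 libraries of 122 and 96.7 TPM. *Grin3a*, *Grin2d* and *Grin2a* followed at 11.1, 9.27 and 6.27 TPM, and *Grin3b* and *Grin2c* were close to the floor at 0.608 and 0.048 TPM. In fed AGRP, fed POMC and FD POMC neurons the TPM ranges of *Grin1* and *Grin2b* overlapped. In FD AGRP neurons every library had more *Grin1* TPM than any had *Grin2b* TPM. This order depends on the division by length. In normalized CPM, without that division, FD AGRP libraries had 124 to 197 of *Grin1* and 265 to 411 of *Grin2b*. Within the middle tier, neighbouring genes overlapped in all 4 groups, and the gap between *Grin2b*, or in FD POMC neurons *Grin1*, and the next gene was free of overlap in each group.

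*Grin1*, the obligatory subunit, did not pass the test in any comparison. In fed AGRP libraries it was measured at 95.1, 110, 112, 123 and 128 TPM, and in FD AGRP libraries at 84.8 to 148 TPM with a median of 128 TPM. In fed POMC libraries it was measured at 84.5, 96.4, 116, 139 and 158 TPM, and in FD POMC libraries at 92.3, 117, 122, 141 and 163 TPM. The groups overlapped throughout. In normalized CPM, the log2 fold change with food deprivation was 0.36 in AGRP neurons (95% interval −0.03 to 0.75, q = 0.281) and −0.05 in POMC neurons (−0.46 to 0.35, q = 0.957), where q is the Benjamini-Hochberg adjusted p of the edgeR quasi-likelihood test over all 16513 genes tested. Between cell types it was −0.28 in fed mice (AGRP relative to POMC, −0.69 to 0.13, q = 0.496) and 0.13 in FD mice (−0.26 to 0.52, q = 0.709).

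*Grin2b*, the glutamate-binding subunit that predominates early in development and carries a long intracellular tail that binds CaMKII, fell in AGRP neurons after food deprivation. Fed AGRP libraries had 79.1, 81.0, 96.7, 111 and 115 TPM, and FD AGRP libraries had 30.1, 34.5, 35.3, 35.7, 52.0 and 57.5 TPM. The highest FD library was below the lowest fed library. The fold change was 2.01-fold lower (95% interval 1.67 to 2.42), a log2 fold change of −1.01 ± 0.13 (SE) at q = 4.51e-06. It was 1 of 1700 genes called, 10.3% of those tested, at q under 0.05, and it also met the stricter criteria for a differentially expressed gene (DEG), which also ask for a change beyond 1 on the log2 scale and for a group mean above 20 CPM and which 4.46% of genes met. The size criterion was met narrowly. Without fed AGRP replicate 1 or 4 or FD AGRP replicate 2, 3 or 5 the log2 value was −0.97 to −0.95, and it was just short of −1 in 3 of 12 other settings (no count filter, the number of sorted cells or the spike-in set as a term), so that the DEG call, though not the q-value call, was lost there. Among all 16513 genes, it ranked 56 by p, and among genes with a negative change it ranked 11. Non-overlapping groups occurred for 7.65% of genes in this comparison.

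In POMC neurons *Grin2b* did not pass the test. Fed POMC libraries had 76.1, 86.6, 112, 116 and 123 TPM, and FD POMC libraries had 116, 124, 125, 125 and 133 TPM. In TPM 4 of the FD libraries lay above the highest fed library and 1 lay within the fed range. In normalized CPM both FD replicate 3 (837) and FD replicate 4 (880) lay within the fed range of 646 to 890. The log2 fold change was 0.17 (95% interval −0.11 to 0.45, q = 0.669), in a comparison with 62 called genes, or 0.375% of those tested. The effect of food deprivation on *Grin2b* differed between the cell types, by a log2 difference of −1.18 ± 0.19 (SE) in AGRP relative to POMC neurons (95% interval −1.57 to −0.79, q = 0.000159), a test that 6.71% of all genes passed.

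Fed AGRP and fed POMC neurons had overlapping levels of *Grin2b*, with a log2 fold change of −0.27 (95% interval −0.55 to 0.01, q = 0.298). After food deprivation, AGRP neurons had 2.72-fold less than POMC neurons (95% interval 2.26 to 3.28), a log2 fold change of −1.45 ± 0.13 (SE) at q = 1.25e-09. The 6 FD AGRP libraries (265 to 411 normalized CPM) lay below the 5 FD POMC libraries (837 to 943 normalized CPM). In this comparison 18.6% of all genes were called and 11.4% had no overlap. The FD comparison shares its libraries with the deprivation contrasts and is not separate evidence.

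Library preparation differed in the volume of diluted ERCC spike-in transcripts, and mice differed in age, so *Grin2b* was also read within these sets. In AGRP neurons, the ratio of mean normalized CPM in FD to fed libraries was 0.579 in the set with 10 µl (2 and 2 libraries), 0.494 in the set dosed by cell number (3 FD and 2 fed) and 0.378 in the set with 1 µl (1 and 1). It was 0.493 in mice of 46 to 51 days and 0.498 in mice of 54 to 56 days. In POMC neurons it was 1.06 in the set with 1 µl and 1.06 in the older mice, the only sets with both feeding states. All FD POMC mice were in the older set, in which the AGRP FD libraries had 285 to 398 normalized CPM. Under scaling by ERCC counts, where only 66 genes were called and the median of all genes moved to −0.93, the log2 change of *Grin2b* in AGRP neurons was −1.82, or −0.89 relative to that median, and was not called (q = 0.387). In the same scaling *Grin2b* was −0.21 between FD AGRP and FD POMC neurons (median of all genes 1.17, q = 0.865), −0.79 for the difference of FD effects (q = 1.000) and −1.03 in POMC neurons (median −1.28), none of them called.

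The length of the locus was also set beside this result. Of the 629 genes with a mean normalized CPM over 20 and a locus over 200 kb, 15.6% were lower and 13.7% higher in FD AGRP neurons, against 5.60% lower and 10.6% higher among 7569 shorter genes. The part of locus length in the *Grin2b* value was not tested.

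**Figure D2:**
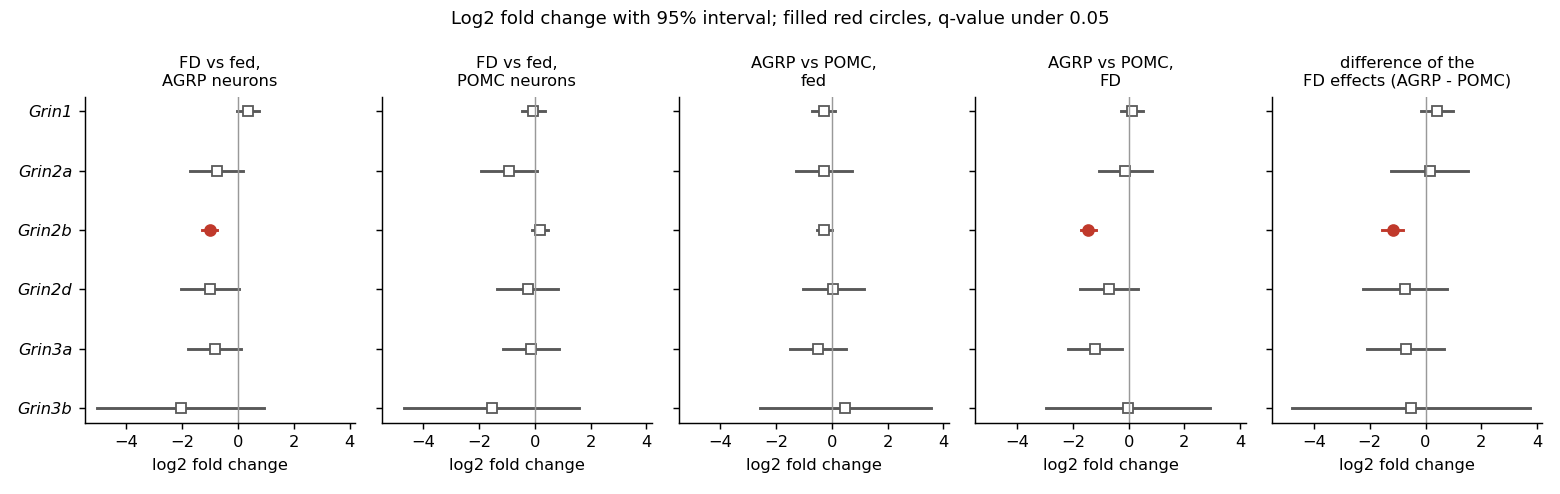
Log2 fold changes (x axis) of the 6 subunit genes that passed the count filter, with 95% intervals, in 5 panels for FD against fed in AGRP and in POMC neurons, AGRP against POMC in fed and in FD mice, and the difference of the FD effects. *Grin2b* is the only gene marked as passing a q-value of 0.05, at −1.01, −1.45 and −1.18, and the intervals of *Grin3b* are the widest.

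*Grin2a*, whose product gives fast-closing receptors in mature circuits, was measured at 6.23, 6.71, 8.08, 11.9 and 11.9 TPM in fed AGRP libraries and at 2.04 to 10.8 TPM (median 3.22) in FD AGRP libraries. Of the FD AGRP libraries, 2 lay at or above the lowest fed one. It was measured at 4.93 to 15.4 TPM (median 8.98) in fed POMC and 2.59 to 8.83 TPM (median 6.22) in FD POMC libraries. The log2 fold change with food deprivation was −0.76 in AGRP neurons (95% interval −1.72 to 0.19, q = 0.362) and −0.92 in POMC neurons (−1.93 to 0.08, q = 0.468). Neither passed the test, and the difference between them was 0.16 (−1.22 to 1.54, q = 0.936).

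*Grin2d*, a GluN2 gene known for slow deactivation and for expression in interneurons and the diencephalon, had a narrow range in fed AGRP neurons, with 8.68, 10.4, 10.997, 11.6 and 12.2 TPM. In FD AGRP neurons the libraries spread widely, with 0.435, 1.50, 2.33, 4.31, 7.53 and 11.2 TPM. In TPM all but the highest FD library lay below the fed range, while in normalized CPM FD replicate 4 (16.01) lay within the fed range of 14.4 to 18.1 and FD replicate 1 (18.15) just above it. The log2 fold change was −1.01 (95% interval −2.05 to 0.03) and did not pass the test (q = 0.243). On the log2(TPM + 1) scale with limma, *Grin2d* was called (−1.43, q = 0.0339, where the median of all genes was −0.28). In POMC neurons it was measured at 4.58 to 13.2 TPM in fed and 3.83 to 10.7 TPM in FD libraries (log2 fold change −0.26, 95% interval −1.35 to 0.83, q = 0.908).

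*Grin2c*, the GluN2 gene best known from cerebellar granule cells and astrocytes, did not pass the count filter and was not tested. It had 3 counts or fewer in 15 of 21 libraries and none in 7. The highest value was 1.31 TPM, from 63 counts in fed POMC replicate 2, and the next was 0.698 TPM, from 15 counts in FD AGRP replicate 6. These counts allow no statement on a difference between groups.

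As TPM, divided by annotated exon length, the GluN2 genes were set against each other and against *Grin1* within each library. The shares and ratios depend on the lengths used. The *Grin2b* transcript taken from GENCODE M21 has 24060 bases, against 4276 for *Grin1*, 4395 for *Grin2a* and 5431 for *Grin2d*. In normalized CPM, without that division, fed AGRP libraries had 547 to 754 of *Grin2b* and 113 to 160 of *Grin1*. *Grin2b* made up 81.0% to 84.5% of summed GluN2 TPM in fed AGRP libraries and 72.2% to 91.6% in FD AGRP libraries. Its share was 81.6% to 86.1% in fed POMC and 88.4% to 92.3% in FD POMC libraries, so the POMC ranges did not meet while the AGRP ranges did. The GluN2 sum itself was 96.0 to 140 TPM in fed AGRP and 32.9 to 79.6 TPM in FD AGRP libraries. It was 93.2 to 143 TPM in fed POMC and 129 to 149 TPM in FD POMC libraries. Among AGRP libraries the sums did not overlap between feeding states, while the shares of *Grin2b* did. *Grin2b* makes up most of each sum, so the gap between the sums is not evidence separate from its own change. These shares and sums are given without a test.

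A ratio within a library does not depend on how libraries are scaled to each other, but its size depends on the lengths used for TPM. *Grin1* TPM divided by *Grin2b* TPM was 0.826 to 1.61 (median 1.16) in fed AGRP, 0.730 to 2.08 (median 0.944) in fed POMC and 0.794 to 1.31 (median 0.980) in FD POMC libraries. In FD AGRP libraries it was 2.4 to 4.05 (median 2.96), above every library of the other groups. The ratio shows unequal change of the 2 transcripts and not which of them moved. It holds the same *Grin2b* values as above and is not separate evidence.

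**Figure D3:**
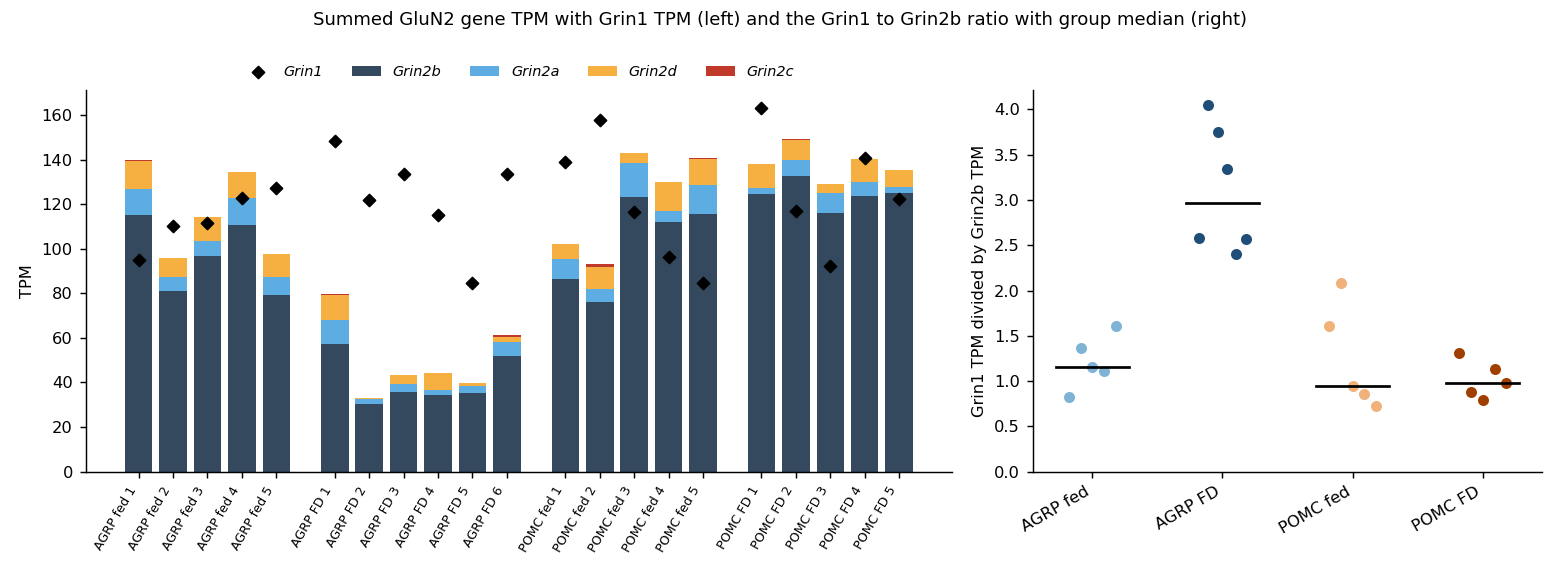
Left, TPM of the GluN2 genes stacked for each of the 21 libraries (bars) with *Grin1* TPM as diamonds. Right, the ratio of *Grin1* to *Grin2b* TPM by group, with medians as lines. In all 6 FD AGRP libraries the diamond is above the bar, and their ratios of 2.4 to 4.05 lie above the other groups, which end at 2.08.

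*Grin3a*, a glycine-binding subunit that limits calcium entry, had a wide spread between mice of the same group. Fed AGRP libraries had 6.67, 7.68, 7.73, 20.5 and 20.999 TPM, and FD AGRP libraries had 1.07, 2.42, 4.14, 5.00, 6.35 and 18.2 TPM. In TPM all FD AGRP libraries except replicate 3 were below the fed range, while in normalized CPM replicate 6 (15.1) also lay above the lowest fed library (13.99). The log2 fold change was −0.84 (95% interval −1.80 to 0.12, q = 0.306). In the 21 fits that left out 1 library it ranged from −1.55 to −0.56, with q up to 0.590. *Grin3a* was called in 1 of them, the fit without FD AGRP replicate 3 (−1.55, q = 0.0181).

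POMC neurons had 7.40, 14.2, 17.7, 18.4 and 23.2 TPM of *Grin3a* when fed and 8.69, 11.1, 17.0, 17.9 and 24.6 TPM when food deprived (log2 fold change −0.13, 95% interval −1.13 to 0.87, q = 0.958). Between cell types in FD mice, *Grin3a* had a log2 fold change of −1.21 in AGRP relative to POMC neurons (95% interval −2.18 to −0.25, q = 0.0721). This value was near the threshold and moved across it with the method. It was called by limma-voom (−1.79, q = 0.00712), by DESeq2 (−1.22, q = 0.0455), with no count filter (−1.22, q = 0.0466) and without FD AGRP replicate 3 (−1.92, q = 0.00161). That was the only call among the 21 fits that left out 1 library, which ranged from −1.92 to −0.99 with q up to 0.188. The difference of the FD effects was −0.71 (−2.10 to 0.68, q = 0.627).

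*Grin3b*, a GluN3 gene known mainly from motor neurons, was at the edge of detection. It had 3 counts or fewer in 9 of 21 libraries and reached 5.92 TPM, from 115 counts, in fed AGRP replicate 4. Each group held libraries at the floor, and the highest library of a group had 26 to 115 counts. The log2 fold change in AGRP neurons was −2.06 with a 95% interval of −5.06 to 0.94 (q = 0.454), and in POMC neurons −1.55 with an interval of −4.69 to 1.59 (q = 0.762). Neither value passed the test, and the intervals are too wide to show whether the gene changed.

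Counted over the 6 members tested, 1 was lower and 0 were higher in FD against fed AGRP neurons, where 4.43% of all genes were lower and 5.87% higher. In POMC neurons 0 members were called and 0 were free of overlap, beside 2.35% of all genes without overlap. Between fed AGRP and fed POMC neurons 0 were called, where 3.33% of all genes were higher and 4.24% lower in AGRP neurons, and 0 were free of overlap, beside 8.93%. In both of these comparisons edgeR gave 0 members with an unadjusted p under 0.05, and limma-voom and DESeq2 also called 0. Of all genes, limma-voom called 73 and DESeq2 382 in POMC neurons, and 1491 and 1673 between fed cell types. In FD AGRP against FD POMC neurons 1 was lower and 0 were higher, beside 9.27% and 9.28% of all genes, and 2 had an unadjusted p under 0.05. In the test of the difference of effects 1 was negative and 0 were positive, beside 2.63% and 4.08%. The median log2 fold change of the 6 was −0.92 in AGRP and −0.20 in POMC neurons with food deprivation, beside −0.02 for all genes in each.

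By Pearson correlation of log2 normalized CPM over the 21 libraries, the genes most like *Grin2b* among 8204 others with a mean CPM over 20 were *Nhsl2* (r = 0.958), *Gas7* (r = 0.951) and *Creg2* (r = 0.947). These values are a description over libraries that share 4 group means. *Creg2* had 69.1 to 125 normalized CPM in fed AGRP and 22.3 to 34.0 in FD AGRP libraries, and 63.8 to 122 in fed POMC and 94.1 to 131 in FD POMC libraries. *Gas7* had 123 to 209 normalized CPM in fed AGRP and 20.8 to 81.3 in FD AGRP libraries. *Nhsl2* had 92.5 to 200 and 28.5 to 98.8 normalized CPM in the same groups, which overlapped slightly. Like *Grin2b*, each was higher in FD POMC than in FD AGRP libraries without overlap, beside 11.4% of all genes without overlap in that comparison. *Nhsl2*, *Gas7* and *Creg2* were picked for their correlation with *Grin2b* over these same libraries. They have its pattern by choice, so the lack of overlap is not separate evidence.

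The other genes of the pathway were read from 4 lists of 72 genes in all, of which 69 could be tested. They comprised 15 genes of coagonist supply, 21 of postsynaptic scaffolds, 26 of kinases, phosphatases and calcium signalling, and 10 of receptor traffic and auxiliary proteins. With food deprivation in AGRP neurons 6 of the 69 rose and 10 fell, or 23.2% beside 10.3% of all genes. Of the 58 with a mean normalized CPM over 20, 27.6% were called, beside 17.2% of the 8198 genes at that level. In POMC neurons 0 rose and 2 fell (2.90% beside 0.375%). The median log2 fold change of the 69 was 0.02 in AGRP and 0.10 in POMC neurons, and the lists were described without a test of the set. Genes named below outside the 5 with the smallest q in a comparison were named after their values were seen.

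Among the scaffolds, which hold the receptor at the postsynaptic density, 1 of the 20 tested rose and 5 fell in AGRP neurons with food deprivation, beside 5.87% of all genes higher and 4.43% lower. *Lin7a*, part of a complex that carries GluN2B to the synapse, had 146 to 204 normalized CPM in fed AGRP and 54.0 to 97.7 in FD AGRP libraries (log2 fold change −1.30 ± 0.18 SE, q = 1.18e-05). The groups did not overlap, beside 7.65% of all genes without overlap. *Lin7a* was named for its small q in this comparison, so the lack of overlap is not separate evidence. *Lin7a* in POMC neurons had a log2 fold change of 0.10 (q = 0.899), and the effects differed between cell types (−1.40 ± 0.26, q = 0.000818). *Dlg2* (PSD-93; −0.60, q = 0.0216), *Dlg1* (SAP97; −0.57, q = 0.0232), *Shank2* (−0.78, q = 0.00569) and *Homer2* (−1.19, q = 0.0297) also fell. *Homer1*, which links scaffolds to metabotropic glutamate receptors and has an activity-induced short form, rose (log2 fold change 1.15 ± 0.33 SE, q = 0.0214). Its groups overlapped, at 26.1 to 36.4 normalized CPM fed and 24.3 to 120 FD, and leaving out fed AGRP replicate 3 or 4 or FD AGRP replicate 5 gave q-values of 0.0598, 0.0503 and 0.0787.

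**Figure D4:**
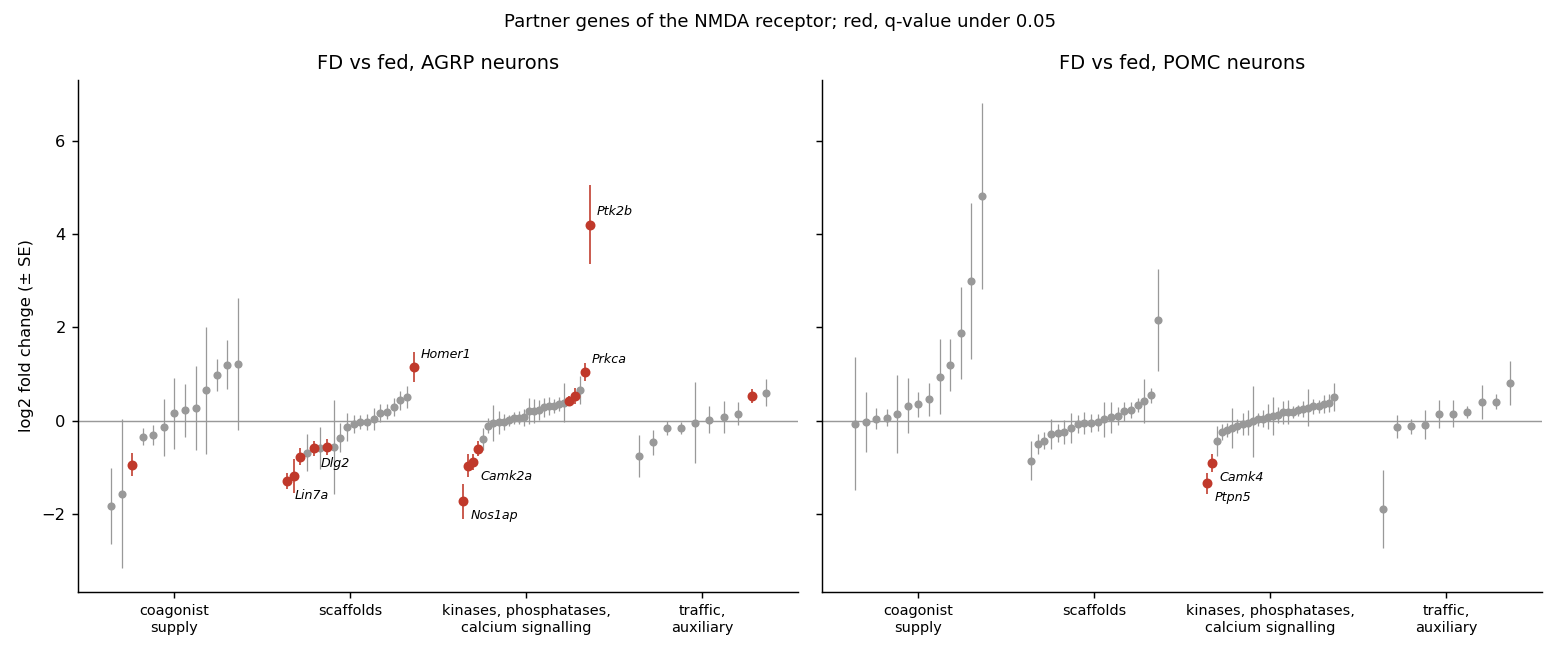
Log2 fold change with food deprivation (y axis, with SE) of the 69 tested partner genes by list, in AGRP (left) and POMC neurons (right), with genes passing a q-value of 0.05 in red. Called genes number 16 on the left, from *Nos1ap* at −1.73 to *Ptk2b* at 4.21, and 2 on the right, *Camk4* and *Ptpn5*.

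Among the 26 kinases, phosphatases and calcium signalling genes, all tested, 4 rose and 4 fell in AGRP neurons (30.8%, beside the same shares of all genes). *Ptk2b* encodes the calcium-activated tyrosine kinase Pyk2, which acts upstream of Src at the receptor. It had 0.229 to 6.87 normalized CPM in fed AGRP and 23.2 to 82.9 in FD AGRP libraries. The groups were free of overlap, beside 7.65% of all genes, but *Ptk2b* was named for its small q here, so this is not separate evidence. Its log2 fold change was 4.21 ± 0.84 (SE, q = 0.00109), whereas POMC libraries had 0.166 to 7.18 normalized CPM over both states (q = 0.998). *Prkca*, a protein kinase C isoform that potentiates NMDA currents, rose by 1.04 ± 0.19 on the log2 scale (q = 0.000289), from 140 to 198 normalized CPM fed to 270 to 386 FD. Under ERCC scaling the log2 values of *Prkca* and *Homer1* turned negative (−0.17 and −0.16), against a median of −0.93 for all genes. *Camk2d* (0.53, q = 0.0376) and *Rasgrf1*, a calcium-dependent Ras exchange factor that binds GluN2B (0.42, q = 0.0106), rose by smaller amounts.

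The 4 that fell were *Nos1ap*, *Camk2a*, *Cdk5r1* and *Ppp3ca*. *Nos1ap*, an adaptor between nitric oxide synthase and the PSD-95 complex, had 16.2 to 35.8 normalized CPM fed and 2.59 to 12.9 FD (log2 fold change −1.73 ± 0.38 SE, q = 0.00256). *Camk2a*, the kinase that docks on the GluN2B tail, had 342 to 435 normalized CPM fed and 134 to 258 FD (−0.89 ± 0.17, q = 0.000637). Neither pair of groups overlapped, beside 7.65% of all genes without overlap in this comparison. Both genes were named for a small q in comparisons of these libraries, so this is not separate evidence. *Cdk5r1*, the activator of Cdk5 (−0.97, q = 0.00915), and *Ppp3ca*, a calcineurin catalytic subunit (−0.60, q = 0.0133), also fell.

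In POMC neurons *Ptpn5* and *Camk4* passed the test, and both fell. *Ptpn5* encodes STEP, a phosphatase that removes phosphate from GluN2B and promotes its internalization. It had 143 to 229 normalized CPM in fed POMC and 61.3 to 68.4 in FD POMC libraries (log2 fold change −1.35 ± 0.22 SE, q = 0.00165). The groups were free of overlap, beside 2.35% of all genes, but *Ptpn5* was named for its small q here, so this is not separate evidence. In AGRP neurons its log2 fold change was 0.28 (95% interval −0.15 to 0.72, q = 0.485), and the effects differed between cell types (1.63 ± 0.31, q = 0.00105). *Camk4*, a nuclear calmodulin kinase, had 95.8 to 211 normalized CPM fed and 65.3 to 104 FD, with a slight overlap (−0.91 ± 0.19, q = 0.0233). The call of *Camk4* was lost by limma-voom (q = 0.0560), with the compared groups alone (q = 0.0946), on log2 TPM (q = 0.261), under both ERCC scalings, where *Ptpn5* was not called either, and without fed POMC replicate 5 (q = 0.0677) or FD POMC replicate 1 (q = 0.0696), 3 (q = 0.0614) or 5 (q = 0.0705).

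In AGRP neurons 1 of 13 tested genes of coagonist supply (7.69%) and 1 of 10 of traffic and auxiliary proteins (10.0%) were called, shares no higher than the 10.3% of all genes. *Srr*, serine racemase, which makes D-serine, fell (log2 fold change −0.95 ± 0.25 SE, q = 0.0134), and *Ap2m1*, an adaptor subunit of clathrin-mediated endocytosis, rose (0.52 ± 0.15, q = 0.0236). In the test of the difference of FD effects between cell types 10 of the 69 partners passed, 4 positive and 6 negative, or 14.5% beside 6.71% of all genes. Among genes with a mean normalized CPM over 20 the shares were 17.2% of the partners and 11.5% of all. They were *Ptk2b*, *Ptpn5*, *Camk4* and *Shank1* on the positive side and *Nos1ap*, *Lin7a*, *Srr*, *Cdk5r1*, *Camk2a* and *Ppp3ca* on the negative side. The q-value of *Nos1ap* rose to 0.0502 without fed AGRP replicate 3, and that of *Camk4* to 0.0528 without fed POMC replicate 5. Without FD AGRP replicate 4, *Neto1* of the traffic and auxiliary list gained a call (−2.44, q = 0.00494).

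Partner genes also differed between the cell types in fed mice, where none of the subunits passed the test. Of the 69, 8 were higher and 8 were lower in fed AGRP than in fed POMC neurons (23.2% beside 7.57% of all genes, or 24.1% beside 11.9% among those with a mean normalized CPM over 20). *Cask*, a scaffold kinase of the Lin7 complex, had 48.4 to 64.3 normalized CPM in AGRP and 242 to 370 in POMC libraries (log2 fold change −2.41 ± 0.20 SE, q = 4.01e-10). *Ptpn5* had 24.1 to 40.2 normalized CPM in AGRP and 143 to 229 in POMC libraries (−2.35 ± 0.23, q = 9.52e-09). On the other side, *Dapk1*, a death-associated kinase reported to bind GluN2B, had 98.4 to 140 normalized CPM in AGRP and 13.5 to 35.1 in POMC libraries (2.16 ± 0.31, q = 8.36e-06). *Dlg2* (1.07 ± 0.18, q = 0.000124) and *Prkca* (1.12 ± 0.19, q = 0.000146) were higher in AGRP neurons as well. None of these 5 overlapped between the cell types in fed mice, beside 8.93% of all genes without overlap. They were picked for the smallest q in this comparison, so the lack of overlap is not separate evidence.

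After food deprivation, 11 of the 69 were higher and 17 lower in AGRP than in POMC neurons (40.6% beside 18.6% of all genes, or 46.6% beside 27.9% among those with a mean normalized CPM over 20). *Cask* was lower in AGRP neurons in this comparison too (log2 fold change −2.05 ± 0.19 SE, q = 1.45e-09) and *Prkca* was higher (1.81 ± 0.19, q = 2.08e-08). *Camk2a* had 134 to 258 normalized CPM in FD AGRP and 429 to 617 in FD POMC libraries (−1.45 ± 0.17, q = 1.62e-07). *Camk4* had 167 to 295 normalized CPM in FD AGRP and 65.3 to 104 in FD POMC libraries (1.51 ± 0.19, q = 6.04e-07). *Neto1*, an auxiliary protein of NMDA and kainate receptors, had 1.88 to 29.4 normalized CPM in FD AGRP and 66.4 to 118 in FD POMC libraries (−3.34 ± 0.49, q = 5.84e-06). All 5 were free of overlap between FD AGRP and FD POMC libraries, beside 11.4% of all genes. These too were picked for the smallest q in the comparison itself.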

How the data were processed

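The members, lists and tests were chosen with earlier results of these data known. Groups came from the sample labels. The authors trimmed reads with cutadapt 1.7.1, identified abundant sequences with Bowtie2 2.1.0, mapped the remaining reads to mm10 with STAR 2.4.0i and, with HTSeq 0.6.1p1, made the deposited counts per gene without strand or normalization. The authors derived the deposited TPM from these counts. The 92 spike-in and 5 summary entries were kept apart from genes; reads without a gene were 25.6% to 55.3% of a library.

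Genes with CPM over 1 in at least 3 libraries were kept (16513, among them 6 of the 7 members). Counts were scaled by TMM and fitted in 1 edgeR 4.0.16 quasi-likelihood model with 4 groups (R 4.3.3), two-sided, with Benjamini-Hochberg adjustment. The study itself tested with limma-voom, run here as an alternative. Between FD and fed AGRP neurons the edgeR test called *Agrp* (log2 fold change 2.08, q = 0.000531). It did not call *Npy* (1.74, q = 0.0558), whose groups did not overlap and which the study reports as upregulated. A member that did not pass the test may therefore still have changed. Intervals use the t distribution of the fit. limma 3.58.1 and DESeq2 1.42.0 served as alternatives. Coding sequences from GENCODE M21 were aligned with mafft 7.526. Locus starts were moved by 1 base to count from 1. The code was tested on simulated counts.

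Named were all members, the 5 partner genes with the smallest q in each two-group comparison among those with q under 0.05 and an absolute log2 fold change over 1, and the 3 genes most correlated with each called member. Replicate numbers do not pair the mice. Splice isoforms were not analysed here. A stretch of aligned coding sequence is not reported here.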

Additional observations from a re-analysis of the deposited data

Results flagged for a closer look

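Of 76 groups examined for a sample far from the others, 6 held one, where chance gives about 1 in 20 groups. *Grin1* was low in FD AGRP replicate 5, at 124 normalized CPM with the next library at 186. *Grin3a* was high in FD AGRP replicate 3, at 45.1 with the next at 15.1. *Grin2c* was high in FD AGRP replicate 6 (1.12, next 0.230) and in fed POMC replicate 2 (2.33, next 0.154). Among partner genes, *Ptpn5* was high in fed POMC replicate 2 (229, next 159) and *Neto1* in FD AGRP replicate 4 (29.4, next 10.7).

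The effect of food deprivation differed between AGRP and POMC neurons, by the interaction term of edgeR's quasi-likelihood test, for 7 of the subunit and partner genes named by rule, given here as log2 differences. Of all genes tested, 6.71% passed this test. The partner genes were named for a small q in comparisons of the same libraries, so their differences are not separate evidence. *Grin2b* differed by −1.18 (q = 0.000159). The 3 genes picked for their correlation with *Grin2b* over the same libraries have its pattern by choice, and their differences are given as a description only, at −1.54 (*Nhsl2*), −2.08 (*Gas7*) and −1.85 (*Creg2*). Negative differences were also found for *Lin7a* (−1.40, q = 0.000818), *Nos1ap* (−2.01, q = 0.0210) and *Camk2a* (−0.93, q = 0.0174). Positive differences were found for *Ptk2b* (4.23, q = 0.0174), *Ptpn5* (1.63, q = 0.00105) and *Camk4* (0.98, q = 0.0232).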

How the results depend on the processing

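*Grin2b* was called in all 21 fits that left out 1 library, at log2 values of −1.08 to −0.95 in AGRP neurons, −1.52 to −1.39 between cell types in FD mice and −1.26 to −1.13 for the difference of effects. The number of called subunits ranged from 1 to 2 in AGRP neurons and from 1 to 2 between cell types in FD mice, the higher number arising without FD AGRP replicate 3, and called partners ranged from 11 to 17 (AGRP), 1 to 2 (POMC), 12 to 17 (fed cell types), 23 to 29 (FD cell types) and 6 to 11 (difference). Over all genes, calls ranged from 1250 to 1920, 40 to 110, 974 to 1336, 2728 to 3142 and 870 to 1313 in this order. Values that changed sign in such fits were not called and ranged, in POMC neurons, from −0.18 to 0.12 (*Grin1*) and −0.36 to 0.0221 (*Grin3a*), between fed cell types from −0.13 to 0.19 (*Grin2d*) and −0.13 to 1.06 (*Grin3b*), between FD cell types from −0.50 to 0.12 (*Grin2a*) and −1.03 to 0.62 (*Grin3b*), and for the difference from −0.22 to 0.40 (*Grin2a*), −1.52 to 0.13 (*Grin3b*) and −0.48 to 0.14 (*Dapk1*).

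Under ERCC scaling 0 subunits were called in any comparison, and called partners numbered 0 (AGRP), 0 (POMC), 3 (fed), 4 (FD) and 0 (difference). Of all 16513 genes, 66, 1, 349, 685 and 54 were called in the same order. Log2 values changed sign for *Grin1* (−0.65), *Prkca* (−0.17) and *Homer1* (−0.16) in AGRP neurons, *Grin2b* (−1.03) in POMC neurons, *Grin1* (0.41), *Grin2a* (0.69), *Grin2b* (0.58) and *Grin3a* (0.17) between fed cell types, *Grin2a* (1.18), *Grin2d* (0.89), *Grin3a* (0.38) and *Grin3b* (0.68) between FD cell types, and *Grin3a* (0.20) for the difference. ERCC scaling per sorted cell, chosen after seeing the data, gave 0 subunits in any comparison and 1, 0, 1, 9 and 1 partners in the same order, with changed signs for *Grin2b* (−0.87) in POMC neurons, *Grin2a* (1.06), *Grin2d* (0.70), *Grin3a* (0.49) and *Grin3b* (0.43) between FD cell types, and *Grin2d* (0.54), *Grin3a* (0.90), *Dapk1* (0.66) and *Dlg2* (0.47) for the difference. Of all genes, 97, 13, 297, 1117 and 119 were called with this scaling. The medians of all genes moved with these scalings, to −0.93 (AGRP) and 1.17 (FD cell types) under ERCC scaling.

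Between FD cell types 2 subunits were called by DESeq2, limma-voom, with no count filter and on log2 TPM, the last of which also called 2 in AGRP neurons and 10 partners between fed cell types. Calls over all genes between FD cell types numbered 3677, 3238, 3182 and 3081 in that order. On log2 TPM 1821 genes were called in AGRP neurons and 1253 between fed cell types. In POMC neurons 1 partner, *Ptpn5*, was called with the compared groups alone, by limma-voom and on log2 TPM, among 46, 73 and 50 called genes. Signs also changed on log2 TPM for *Grin1* in POMC neurons (0.11), between FD cell types (−0.0430) and for the difference (−0.0066), and for *Grin2a* (−0.24) and *Cask* (−0.0613) for the difference, and by limma-voom for *Grin2a* (−0.13). With the age cohort as a term they changed for *Grin1* (0.15 in POMC neurons, −0.0691 between FD cell types) and *Grin3b* (0.69 between FD cell types). With the spike-in set they changed for *Grin1* (0.10 and −0.16 in the same comparisons), *Grin3a* (0.0095 in POMC neurons), *Grin2d* (−0.0601, fed) and *Grin3b* (1.21, FD). With the number of sorted cells they changed for *Grin3b* (−0.86 fed, 0.42 difference). The cause was not tested for any of these.

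Same-numbered mice did not deviate together, with correlations of −0.163 to 0.102 over the 4 comparisons. With the replicate number as a block the called subunits numbered 1 (AGRP), 0 (POMC), 0 (fed), 1 (FD) and 1 (difference), called partners 14, 2, 14, 25 and 9, and the signs of *Grin3b* between fed cell types (−0.35) and *Grin2a* for the difference (−0.13) changed. Of all genes, 1488, 48, 1132, 2817 and 927 were called with this block. *Grin2c* and *Grin3b* had 3 counts or fewer in 15 and 9 of the 21 libraries, which limits what can be read from them.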
